A study of Mus musculus with 6 samples.

Results

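The genes described here are 10 genes of the voltage-gated calcium channel family and its regulators in mouse hippocampus: 8 genes for the pore-forming subunit (Cacna1a, Cacna1b, Cacna1c, Cacna1d, Cacna1e, Cacna1g, Cacna1h and Cacna1i), Cacnb4 for a beta subunit, and Cbarp, a regulator of the channels. They were chosen by symbol from the 36008 genes of the deposited gene table, and through the GENCODE M21 annotation they hold 121 of the 118783 transcripts in the deposited transcript files. The list was drawn up because an earlier look at the same data had called Cbarp for a difference in transcript use, so the values of Cbarp in WT and Prmt9 KO are given below as a description, and tests between the genotypes are reported for the other 9 genes. RNA-seq of polyadenylated RNA was made from hippocampus of 3 WT and 3 Prmt9 KO mice, all female, of strain B6J and 2 weeks old. PRMT9 is an arginine methyltransferase whose known substrate, SF3B2, is part of the spliceosome, and the study asked how its loss changes RNA splicing in the brain. The KO was a whole-body deletion and the controls were littermates of the same sex, so in the KO mice every cell type of the tissue, neurons and others, carried the deletion.

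Voltage-gated calcium channels open when a neuron depolarizes and let in the calcium that triggers transmitter release, shapes firing and drives activity-dependent transcription. The pore-forming subunit sets the class of the current: Cav2 channels (P/Q-, N- and R-type) work largely at presynaptic terminals, Cav1 channels (L-type) on cell bodies and dendrites, and Cav3 channels (T-type) open near the resting potential. Beta subunits bind the pore of Cav1 and Cav2 channels and bring it to the membrane, and CBARP binds beta subunits and lowers the calcium current.

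The deleted gene was lower in every KO mouse. Prmt9 stood at 11.8, 15.2 and 15.0 TPM (a level corrected for transcript length and library size) in WT replicates 1, 2 and 3 and at 3.93, 4.61 and 4.67 TPM in the KO replicates, with a log2 fold change of −1.71 (SE 0.10) and an edgeR adjusted p of 0.0327, above the limit of 0.01 used for a call. In DESeq2, which called 2 genes, the adjusted p of Prmt9 was 1.42e-60. Every one of 27 marker genes of hippocampal, glial, vascular and neighbouring cell types had at least 1 TPM in every mouse. The estimated counts summed to between 194098391 and 286771677 per mouse, with the lowest sum in WT replicate 1. In that mouse 37.37% of transcripts had no count. In the others this was 22.75% (KO replicate 2) to 24.76% (KO replicate 1), so the mice numbered 1 were not alike in this respect. WT replicate 1 and KO replicate 1 stood apart from the other 4 mice: the oligodendrocyte genes Mbp and Mog summed to 1459 and 711 TPM in these mice and to between 4871 and 6925 TPM in the others. Of 4 markers of excitatory neurons, Camk2a, Slc17a7 and Prox1 were lower in both of these mice than in the others and Neurod6 was not, and Camk2a had 776 and 816 TPM against 1640 to 1704. Of 3 choroid plexus genes, Ttr had 7157 TPM in WT replicate 1 against 589 to 3261 elsewhere, and Kl was not highest in that mouse. In bulk tissue, fewer cells of a type and less RNA per cell cannot be told apart. The part of these differences in the results below was not tested, and the tests are therefore also given without both mice numbered 1.

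Among the 10 genes, Cbarp had the highest level in the gene table in all 6 mice. Its TPM was 206.8, 262 and 263 in WT and 239.6, 267 and 274 in KO. Cacna1a, the pore of P/Q-type channels, came next with a mean of 116 TPM over the 6 mice, and Cacna1g, a T-type channel, followed with 94.1 TPM. Cacna1a was above Cacna1g in 5 of the 6 mice, so this pair of neighbours was not separated in every mouse. Cacna1e (R-type), Cacna1h (T-type) and Cacna1b (N-type) had means of 61.2, 61.0 and 54.6 TPM. Cacna1e exceeded Cacna1h in only 3 of the 6 mice, and Cacna1h exceeded Cacna1b in 5, so the order of these 3 genes was not fixed. Cacna1d (L-type) had a mean of 43.9 TPM, Cacnb4 27.7 TPM, Cacna1c (L-type) 24.9 TPM and Cacna1i (T-type) 22.0 TPM. Cacnb4 was above Cacna1c in 4 of the 6 mice, and Cacna1c was above Cacna1i in all 6.

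The genes lie apart in the genome (GRCm38). The Cav2 genes are Cacna1a at chr8:84388440-84640246 on the plus strand, Cacna1b at chr2:24603887-24763152 and Cacna1e at chr1:154390731-154884501, both on the minus strand. The Cav1 genes Cacna1c, at chr6:118587240-119196418, and Cacna1d, at chr14:30039939-30491455, are on the minus strand. The Cav3 genes are Cacna1g at chr11:94408391-94474198 and Cacna1h at chr17:25374285-25433783 on the minus strand and Cacna1i at chr15:80287238-80398279 on the plus strand. Cacnb4 lies at chr2:52428320-52676831 on the minus strand. Cacna1c had the most annotated transcripts, 27, and Cacna1i and Cacnb4 the fewest, 6 each.

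The mice numbered 1 were low in most of these genes. In 8 of the 10 genes both of these mice were below all 4 others, the exceptions being Cacna1b and Cacna1g. The same held for 6917 of 14188 genes with at least 1 TPM in every mouse, or 48.8%. Cacnb4 varied most, with the highest mouse at 2.58 times the lowest, and its mean in the mice numbered 1 was 44.9% of that in the others. Cbarp varied least, with a ratio of 1.33. Cacna1g was the only gene whose highest value, 119.7 TPM, belonged to a mouse numbered 1, KO replicate 1.

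**Figure D1:**
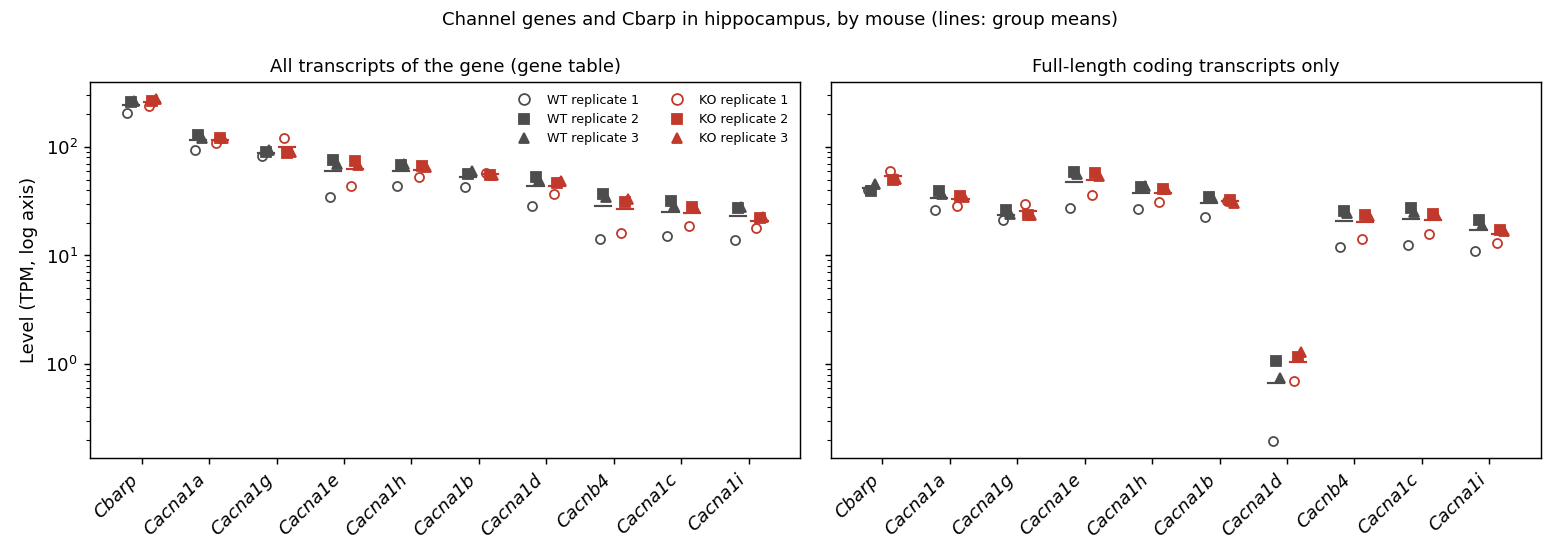
Level of each gene in TPM on a log axis, for WT (grey) and KO (red) mice, with replicate 1 as open circles and short lines for group means. The left panel holds the gene table, with Cbarp highest at 206.8 to 274 TPM, and the right panel the matched full-length coding transcripts alone, where Cacna1d falls to between 0.195 and 1.28 TPM.

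These gene levels were built from unlike transcripts. A transcript was counted here as full-length coding when it is annotated as protein coding and its coding sequence has at least 80% of the longest one of the gene. Such transcripts held 85.7% of the matched TPM of Cacna1c and 83.7% of Cacna1e, averaged over 6 mice, and 76.0% of Cacnb4. They held 33.3% of Cacna1a, 26.4% of Cacna1g, 19.0% of Cbarp and 3.21% of Cacna1d. In Cacna1a and Cacna1g most of the rest lay in short annotated fragments. Cacna1a-210, a processed transcript of 549 bases, held 42.0% of the TPM of Cacna1a, and 5 processed transcripts held 73.6% of Cacna1g. TPM divides by length, so these fragments weigh less in estimated counts, where Cacna1a-210 held 5.40% and the full-length coding transcripts of Cacna1a and Cacna1g 85.4% and 84.9%. Cacna1d and Cbarp differed from the other 8 genes in this respect. Transcripts with a retained intron held 93.0% of the TPM and 85.9% of the estimated counts of Cacna1d, and transcripts annotated for nonsense-mediated decay, the pathway that destroys messages with an early stop, held 47.5% of the TPM and 66.2% of the estimated counts of Cbarp.

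Counted by full-length coding transcripts alone, Cacna1e and Cbarp had the highest levels, with means of 48.5 and 47.6 TPM, and Cacna1e was the higher of the pair in 4 of the 6 mice. Cacna1h followed at 37.8 TPM, Cacna1a at 33.5, Cacna1b at 31.2, Cacna1g at 24.8, Cacna1c at 21.4, Cacnb4 at 20.5 and Cacna1i at 16.4 TPM. Cacna1d was last at 0.855 TPM. For 3 genes the gene table held more TPM than the transcripts that could be matched to the annotation, which accounted for 53.5% to 73.1% of Cacna1d, 79.4% to 89.4% of Cacna1a and 92.9% to 97.1% of Cacna1e, depending on the mouse. Transcript shares of these genes, and the low coding level of Cacna1d, therefore cover the matched transcripts only.

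**Figure D2:**
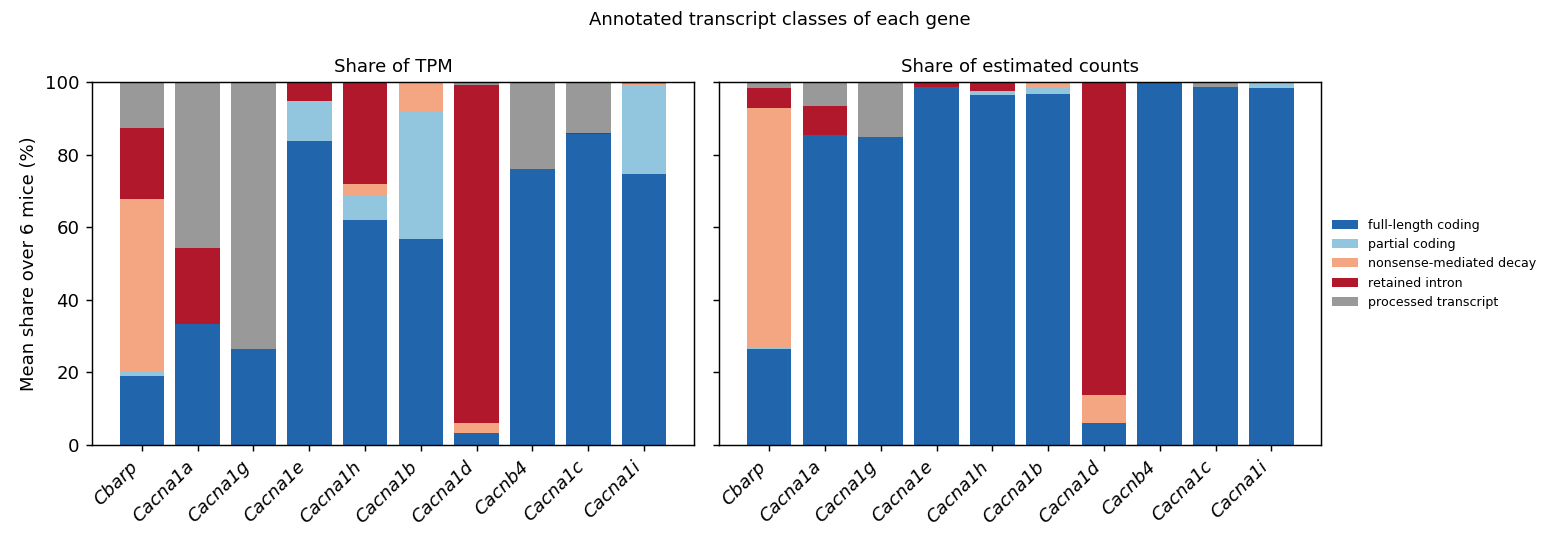
Mean share over 6 mice (%) of each annotated transcript class in the matched transcripts of each gene, by TPM on the left and by estimated counts on the right. Short processed transcripts of Cacna1a and Cacna1g shrink from left to right, whereas the decay-annotated share of Cbarp grows from 47.5% to 66.2%.

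Cbarp lies on the minus strand of chromosome 10 (GRCm38, positions 80130451 to 80140835) and has 15 annotated transcripts. Its long isoforms differ in a short alternative exon, exon 5 of Cbarp-212. Cbarp-215 and Cbarp-201 are both protein coding, skip this exon and encode 698 codons each, Cbarp-201 with an additional first exon in front. Cbarp-212 carries the exon in a form of 54 bases. Its reading frame meets a TAA stop after 112 codons, inside this exon and with 6 exons still to come, and it is annotated for nonsense-mediated decay. Cbarp-214 is protein coding, with 705 codons counted from a later annotated start, and carries only the first 39 bases of the exon. The exon is shown because the isoform call of Cbarp turned on it. The 54 bases at chr10:80136690-80136743, minus strand, are written 5′ to 3′, with the 39 bases that Cbarp-214 keeps in capitals:

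Cbarp alternative exon: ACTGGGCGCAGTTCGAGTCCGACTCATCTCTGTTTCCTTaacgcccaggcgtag

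The last capital T and the 2 bases after it, aa, form the TAA stop of Cbarp-212. In Cbarp-214 the exon ends at base 39, before the stop is complete, and 39 is a multiple of 3. The intron that Cbarp-214 removes would thus begin with the bases AA, whereas introns nearly always begin with GT. The 54-base form is followed by GT, as read from the longer form of 81 bases in Cbarp-207. Cbarp-214 and Cbarp-215 share all 2941 bases of Cbarp-215, and Cbarp-214 differs only by its 39 additional bases. Reads that tell this pair apart must enter the exon or span the place where it is skipped. The same 39 bases also lie in the longer forms of Cbarp-212 and Cbarp-207. Reads inside them alone therefore do not single out Cbarp-214.

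**Figure D3:**
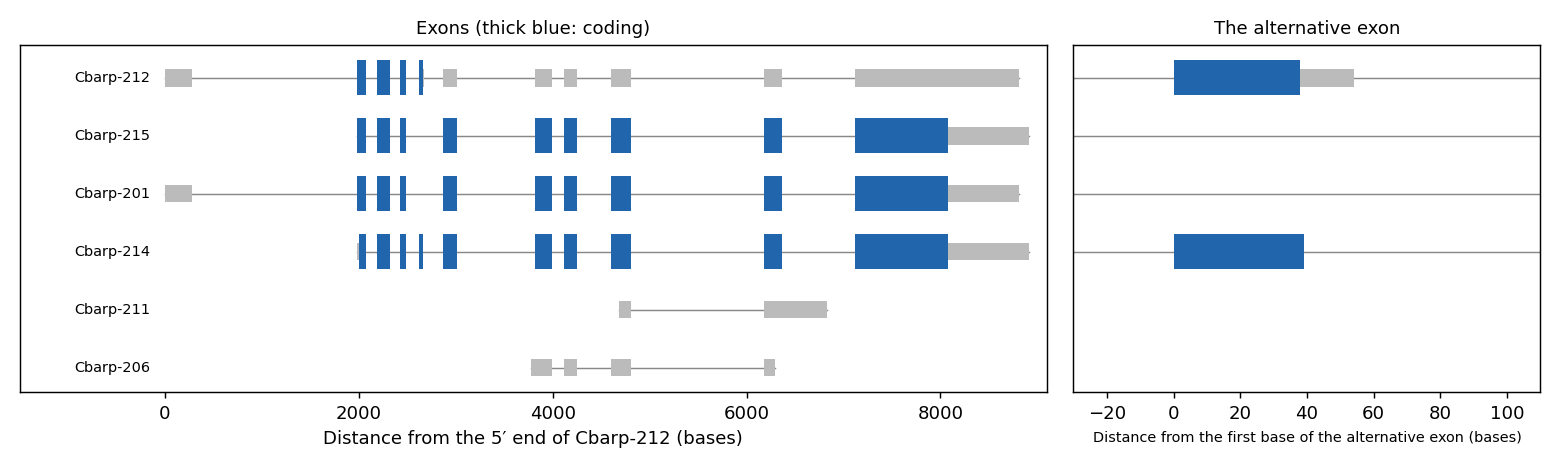
Exons of 6 Cbarp transcripts, drawn to scale in bases from the 5′ end of Cbarp-212 on the left and from the first base of the alternative exon on the right; thick blue bars are coding, thin grey bars are not. The alternative exon measures 54 bases in Cbarp-212 and 39 in Cbarp-214, and it is absent from Cbarp-215 and Cbarp-201.

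Cbarp-214 was the transcript on which the call of Cbarp rested, and it was rare. Its estimated counts were 0 in all 3 WT mice and 41.3, 144 and 223 in KO replicates 1, 2 and 3. Its level was 0.111, 0.329 and 0.569 TPM in the KO mice, or 0.0465%, 0.123% and 0.207% of the TPM of Cbarp. In estimated counts the KO shares were 0.0630%, 0.175% and 0.293% of Cbarp. A floor of 3 counts in each WT library corresponds to a share of 0.00435% to 0.00590%. The share of the lowest KO mouse was 10.7 times the highest WT floor. This ratio describes a transcript that was picked through these same values, and it is no lower bound on the difference. Estimated counts are divided among overlapping transcripts by the quantifier, so a 0 is an estimate and the floor covers counting error only. Of the 24 transcripts called for a change in use in the same fit, 16 were at 0 after rounding in every mouse of one genotype, 14 of them in WT and 2 in KO.

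The abundant Cbarp transcripts were present in both genotypes. Cbarp-212 led in every mouse, with a share of 39.2%, 45.9% and 42.3% of Cbarp TPM in WT and 40.6%, 42.9% and 43.0% in KO. Cbarp-215 had 18.5%, 14.5% and 17.0% in WT and 24.7%, 18.5% and 18.3% in KO, and WT replicate 1 lay above KO replicates 2 and 3. In TPM the groups of Cbarp-215 did not overlap, with 38.3, 38.1 and 44.8 TPM in WT and 59.1, 49.3 and 50.2 TPM in KO. The level of all full-length coding Cbarp transcripts, to which Cbarp-215 contributed most, was 41.5 ± 3.55 TPM in WT and 53.6 ± 5.50 TPM in KO (SD, n = 3 each). These groups did not overlap either. As a share of Cbarp TPM the same transcripts held 17.2% ± 2.16 in WT and 20.8% ± 3.67 in KO (SD, n = 3 each), with overlap. How many of all transcripts lack overlap in TPM was not counted.

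Of the smaller Cbarp transcripts, Cbarp-206, a fragment of 663 bases with a retained intron, had 11.0%, 6.42% and 7.52% in WT and 2.75%, 5.99% and 5.36% in KO, every KO mouse below every WT mouse. All retained-intron transcripts of Cbarp together held 21.5% ± 0.40 in WT and 17.2% ± 2.37 in KO (SD, n = 3 each), also without overlap. The shares of Cbarp-211, another retained-intron fragment, lay between 9.36% and 12.7% in WT and between 10.6% and 11.6% in KO. Cbarp-205, a processed transcript, had 4.74% ± 0.89 in WT and 6.37% ± 0.75 in KO (SD, n = 3 each), and its groups overlapped. Cbarp-201, the coding transcript with the additional first exon, stayed under 1% of Cbarp in every mouse, with 1.49, 1.10 and 0.824 TPM in WT and 0.666, 0.223 and 0.349 TPM in KO. All KO values of Cbarp-201 were below all WT values. For transcripts this rare, and for summed classes such as the retained-intron transcripts, the share without overlap among all genes was not counted. Of the 5 Cbarp transcripts with at least 5% of the TPM, Cbarp-206 alone had shares that did not overlap, beside 9.74% of all such transcripts without overlap.

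**Figure D4:**
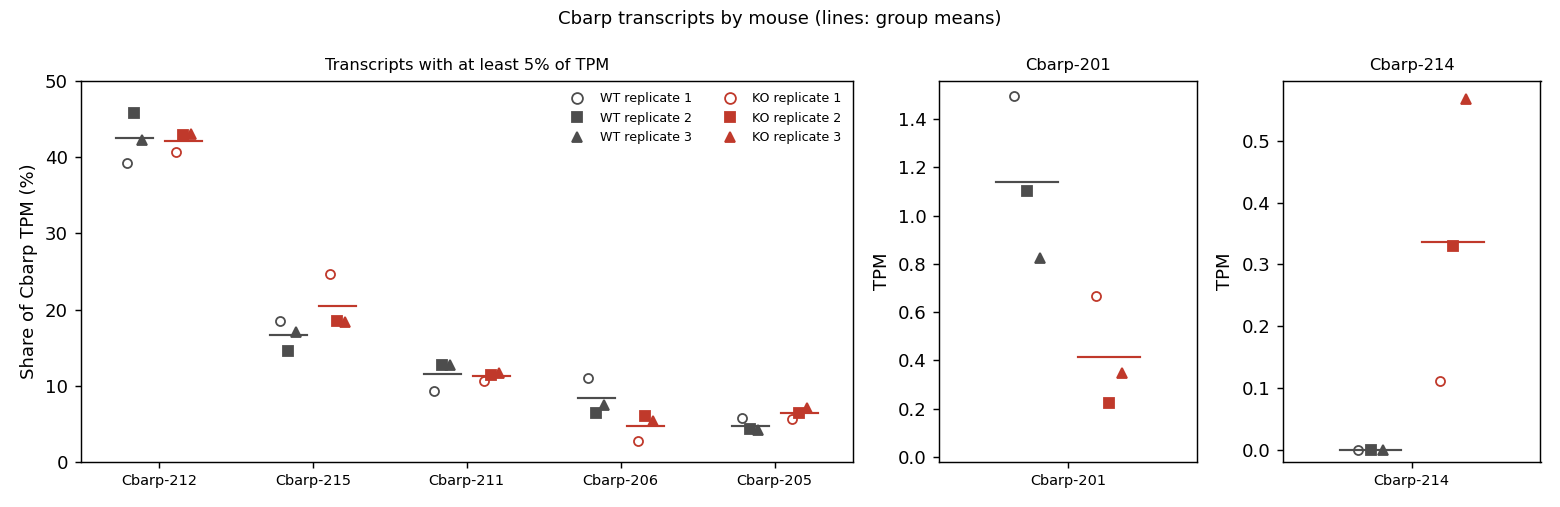
Share of Cbarp TPM (%) of the 5 transcripts with at least 5% on the left, and TPM of Cbarp-201 and Cbarp-214 in the other panels, for each WT (grey) and KO (red) mouse with group means as lines. Cbarp-214 is at 0 in all WT mice and between 0.111 and 0.569 TPM in the KO mice, while Cbarp-212 lies between 39.2% and 45.9% in all mice.

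Splicing events of Cbarp were built from the annotated transcripts. The PSI (percent spliced in, here a share from 0 to 1) is the TPM of the transcripts with an exon divided by the TPM of those with and without it. For the 54-base exon the PSI was 0.636, 0.712 and 0.668 in the WT mice and 0.594, 0.669 and 0.673 in the KO mice, and the groups overlapped. For a cassette exon of 140 bases the values were 0.931, 0.932 and 0.927 in WT and 0.937, 0.945 and 0.957 in KO, a small difference without overlap, as in 10.7% of all events tested. The other 3 Cbarp events differed by at most 0.0085 in mean PSI, with overlapping groups.

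The gene levels of WT and KO were compared for the 9 genes other than Cbarp. In edgeR's quasi-likelihood test over 20315 genes, the limits for a call were a fold change of 1.5 and an adjusted p of 0.01, and 0 genes passed both (0.0%), the 9 genes included. At an unadjusted p below 0.05 there were 252 genes (1.24%), none of them one of the 9. DESeq2 called 2 genes and limma on log2(TPM + 1) called 0, and neither called any of the 9. The WT and KO ranges of gene TPM overlapped for all 10 genes, where 6.67% of genes tested had ranges that did not. The fold changes below come from normalised estimated counts, while the levels beside them are TPM. For Cacna1a, Cacna1b, Cacna1d and Cacna1h the fold change was below 0 although the mean TPM was higher in KO, so no direction is read for these genes.

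Among the Cav2 genes, Cacna1a had 94.5, 128 and 122 TPM in WT and 108.5, 121 and 122 TPM in KO, with a log2 fold change of −0.08 (SE 0.11). Cacna1b had 43.0, 56.5 and 60.6 TPM in WT and 57.4, 54.7 and 55.5 TPM in KO, with a log2 fold change of −0.00 (SE 0.11). Cacna1e had 34.4, 76.3 and 69.7 TPM in WT and 43.9, 74.5 and 68.7 TPM in KO, with a log2 fold change of 0.01 (SE 0.24). For Cacna1e the spread came from the replicates numbered 1, which were the lowest mouse of both groups.

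Of the Cav1 genes, Cacna1c had 15.2, 31.7 and 28.7 TPM in WT and 18.7, 27.7 and 27.2 TPM in KO (log2 fold change −0.07, SE 0.21), and Cacna1d had 28.3, 53.3 and 49.7 TPM in WT and 37.0, 46.6 and 48.5 TPM in KO (log2 fold change −0.04, SE 0.09). Among the Cav3 genes, Cacna1g had 82.6, 89.7 and 94.3 TPM in WT and 119.7, 88.5 and 89.8 TPM in KO (log2 fold change 0.05, SE 0.16). Its group means differed through KO replicate 1 alone, since the other KO mice lay inside the WT range. Cacna1h had 43.7, 67.9 and 70.4 TPM in WT and 52.3, 66.4 and 65.0 TPM in KO (log2 fold change −0.06, SE 0.13). Cacna1i had 13.9, 27.4 and 27.9 TPM in WT and 18.1, 22.3 and 22.6 TPM in KO, and its log2 fold change of −0.17 (SE 0.17) was the largest in size of the 9. Cacnb4 had 14.3, 37.0 and 34.9 TPM in WT and 16.2, 30.8 and 33.0 TPM in KO (log2 fold change −0.09, SE 0.25).

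Without both mice numbered 1, the log2 fold change was −0.24 for Cacna1i, −0.13 for Cacna1b, −0.13 for Cacna1c and −0.12 for Cacnb4, and these 4 of the 9 genes had an unadjusted p below 0.05. In that fit of 2 mice against 2, 16.4% of all genes had such a p. The edgeR adjusted p of the 4 genes was between 0.133 and 0.275, so none was called. Cacna1i was lower in both remaining KO mice than in both remaining WT mice by values larger than the spread within each pair. The share of all genes separated in this way was not counted, so this is a description only. With all mice included, the WT and KO ranges of Cacna1i overlapped.

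The wider family showed no call either. Of 43 genes of the channel complexes, their regulators and presynaptic partners, the 10 included, all were tested and 0 had an unadjusted p below 0.05. In this list 16 log2 fold changes were above 0 and the median was −0.03, beside 9532 of 20315 above 0 and a median of −0.01 over all genes. Without both mice numbered 1, 10 of the 43 had an unadjusted p below 0.05 in edgeR, beside the 16.4% of all genes given above. With a term for these mice 5 of the 43 had one, beside 1979 of all 20315 genes. With the replicate block 2 of the 43 had one, beside 1168 of 20315. In these fits 0 of the 43 were called. Among the other beta subunits, Cacnb3 was the most abundant with 119 to 159 TPM over the 6 mice, followed by Cacnb1 with 69.3 to 101 TPM and Cacnb2 with 20.2 to 38.4 TPM, and all 3 ranges of KO values overlapped those of WT. The alpha2delta subunits, which take part in carrying the channel to the surface, ranged from Cacna2d3 with 61.4 to 78.3 TPM, through Cacna2d1 with 23.6 to 46.6 TPM and Cacna2d2 with 11.1 to 22.0 TPM, down to Cacna2d4 with 1.28 to 3.56 TPM. The remaining pore-forming genes, Cacna1s and Cacna1f, known from muscle and retina, had at most 2.23 and 0.847 TPM.

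Transcript use was fitted in edgeR's diffSpliceDGE over 13560 genes, of which 23 were called (0.17%) and 234 had an unadjusted p below 0.05 (1.73%). Of the 9 genes other than Cbarp, 0 were called and 0 had an unadjusted p below 0.05, each had an adjusted p of 1, and the lowest unadjusted p was that of Cacna1b, 0.272 in edgeR. With limma on voom weights 4 genes were called, again 0 of the 9. Cbarp was listed because this readout calls it, so its place among the 23 was given by the choice and supports nothing. That call rested on Cbarp-214, which passed the filter on low counts through the KO mice only. It was absent with limma on voom weights, where the adjusted p was 0.0443, and also when every transcript needed at least 10 counts in every mouse, a filter that removes Cbarp-214. The 9 genes had 40 transcripts with at least 5% of the TPM of their gene in either genotype, and the WT and KO shares of 4 of them did not overlap, that is 10% beside 9.74% of all such transcripts. These 4 were Cacna1a-210, Cacna1a-209, Cacnb4-201 and Cacnb4-206.

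The leading transcript of each of the 9 genes was compared with an exact permutation test. Cacna1a-210 had 41.0%, 39.7% and 40.8% of the gene in WT and 47.5%, 41.3% and 41.6% in KO, which gave the smallest two-sided p that 3 mice against 3 allow, 0.1 in the exact permutation test. The KO mean was 2.99 percentage points above the WT mean, and most of it came from KO replicate 1. The other 8 leading transcripts, tested in the same way, gave exact p values from 0.3 to 0.9. Their shares were 33.2% ± 1.51 in WT and 33.8% ± 2.74 in KO for Cacna1b-204, 81.6% ± 1.14 and 80.7% ± 1.34 for Cacna1e-203, and 62.0% ± 1.85 and 64.2% ± 2.70 for Cacna1c-207 (SD, n = 3 each). Among the T-type genes, Cacna1i-202 had 74.8% ± 5.08 and 74.6% ± 2.18, Cacna1h-205 had 31.8% ± 2.28 and 36.3% ± 6.40, and Cacna1g-213, a processed transcript, 21.0% ± 3.69 and 22.5% ± 1.57 (SD, n = 3 each). Cacnb4-202 had 36.4% ± 9.51 in WT and 42.7% ± 11.8 in KO, with 47.4% in WT replicate 1 and 55.9% in KO replicate 1 as the highest of each group. Cacna1d-212, with a retained intron, had 43.4% ± 8.12 and 42.3% ± 3.04.

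Without both mice numbered 1, 1 of the 9 genes was called for transcript use, among 249 of 13666 genes (1.82%). It was Cacna1c, with an edgeR adjusted p of 1.58e-06. The Cacna1c call rested on 2 rare coding transcripts. Cacna1c-208 had 0.0588 and 0.0256 estimated counts in the WT replicates 2 and 3 and 86.8 and 57.2 in the KO replicates 2 and 3, and Cacna1c-219 had 98.4 and 32.4 in WT and 0 in both KO mice. Neither exceeded 0.376% of the TPM of Cacna1c in any mouse. Each passed the filter on low counts through 1 genotype only, so the call is no separate support for a difference. Of the 307 transcripts called in this fit, 137 were at 0 after rounding in every mouse of 1 genotype. In KO replicate 1 the pattern was the opposite, with 0.0121 estimated counts for Cacna1c-208 and 59.8 for Cacna1c-219. WT replicate 1 had 0 estimated counts of both. The call was absent when all 6 mice were fitted.

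Channel genes are known for pairs of mutually exclusive exons, of which a message carries one or the other. Such pairs of 97 bases each were annotated in all 3 Cav2 genes, in Cacna1a and Cacna1b known to code for the start of the cytoplasmic tail. They are shown because both exons of a pair have the same length, so that a switch between them keeps the reading frame, and because the Cacna1a pair was among the events whose genotypes did not overlap. The sequences are written 5′ to 3′ as transcribed, read from GENCODE M21 transcripts (GRCm38), with capitals where the exons of a pair differ. The Cacna1a exons lie at chr8:84614695-84614791 and chr8:84615574-84615670 on the plus strand, the Cacna1b exons at chr2:24626823-24626919 and chr2:24625238-24625334 on the minus strand, and the Cacna1e exons at chr1:154417950-154418046 and chr1:154416061-154416157 on the minus strand:

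Cacna1a upstream: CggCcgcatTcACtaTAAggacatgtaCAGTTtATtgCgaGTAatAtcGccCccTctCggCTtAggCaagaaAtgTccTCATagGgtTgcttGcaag
Cacna1a downstream: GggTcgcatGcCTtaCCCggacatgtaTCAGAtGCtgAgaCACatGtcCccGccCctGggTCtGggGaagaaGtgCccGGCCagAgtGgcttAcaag
Cacna1b upstream: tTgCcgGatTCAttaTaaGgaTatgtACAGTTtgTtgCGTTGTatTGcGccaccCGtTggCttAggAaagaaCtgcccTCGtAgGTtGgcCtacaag
Cacna1b downstream: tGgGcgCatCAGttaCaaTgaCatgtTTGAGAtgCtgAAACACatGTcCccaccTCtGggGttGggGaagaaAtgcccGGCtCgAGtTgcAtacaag
Cacna1e upstream: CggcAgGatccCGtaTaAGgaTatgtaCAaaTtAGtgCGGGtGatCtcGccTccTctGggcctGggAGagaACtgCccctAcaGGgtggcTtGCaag
Cacna1e downstream: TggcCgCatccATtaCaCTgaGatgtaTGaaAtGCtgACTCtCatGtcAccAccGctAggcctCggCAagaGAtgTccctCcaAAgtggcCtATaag

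The exons of a pair matched at 60 of 97 positions in Cacna1a, 57 in Cacna1b and 61 in Cacna1e. The like-placed exons of different genes matched at more positions. The upstream exons of Cacna1a and Cacna1b shared 73, their downstream exons 77, and the downstream exons of Cacna1a and Cacna1e 70.

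In Cacna1a the PSI of the upstream exon was 0.460, 0.464 and 0.453 in the WT mice and 0.394, 0.446 and 0.440 in KO. All KO mice were below all WT mice. The mean difference of −0.03 was not called (limma over 21248 events, unadjusted p = 0.275 and adjusted p = 1), and it was −0.016 without both mice numbered 1. The downstream exon was represented by Cacna1a-210 alone, the short processed transcript described above, and no annotated coding transcript carried it. Computed from estimated counts, the PSI was 0.945 ± 0.002 in WT and 0.936 ± 0.007 in KO (SD, n = 3 each), so its height depended on the unit. The order of the genotypes was the same, but both units come from the same transcript estimates and are not separate evidence. In Cacna1b the PSI of the downstream exon was 0.856, 0.820 and 0.749 in the WT mice and 0.833, 0.802 and 0.787 in KO, and the opposite exon rested on Cacna1b-210, a coding fragment of 332 bases. In Cacna1e the downstream exon had a PSI between 0.870 and 0.913 in all 6 mice, set against the fragment Cacna1e-208 of 331 bases. From estimated counts the mean PSI of Cacna1b was 0.995 in WT and 0.995 in KO. That of Cacna1e was 0.9986 in WT and 0.9984 in KO. The height of the PSI thus depended on the unit in these genes too.

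In Cacna1c both exons of each pair were carried by full-length coding transcripts. A pair of 84 bases each had a PSI for its downstream exon of 0.221, 0.298 and 0.298 in WT and 0.192, 0.273 and 0.269 in KO. In both groups replicate 1 was the lowest, and the groups overlapped. Within each number the KO mouse was below the WT mouse, and limma with the replicate block gave an unadjusted p of 0.144 and an adjusted p of 0.757. A pair of 60 bases had a downstream PSI between 0.880 and 0.923 in all 6 mice, so most messages carried that exon in both genotypes. A pair of 104 bases, in the first repeat of the channel near its pore lining, had a downstream PSI of 0.085 to 0.124 in WT and 0.092 to 0.133 in KO. This pair is shown as an example of exons both present in full-length messages, at chr6:118742265-118742368 and chr6:118741871-118741974 on the minus strand, again with capitals at the positions that differ:

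Cacna1c upstream: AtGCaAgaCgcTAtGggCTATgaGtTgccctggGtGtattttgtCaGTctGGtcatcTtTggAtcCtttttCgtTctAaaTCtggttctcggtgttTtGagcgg
Cacna1c downstream: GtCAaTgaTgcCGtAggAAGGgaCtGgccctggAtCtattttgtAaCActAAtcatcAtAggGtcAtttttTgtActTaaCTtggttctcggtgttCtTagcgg

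The Cacna1c exons matched at 72 of 104 positions. Cacna1d has a pair of the same length, which matched at 82 of 104. The PSI of its downstream exon was 0.124, 0.512 and 0.420 in the WT mice and 0.476, 0.474 and 0.585 in KO, the widest spread of any pair. The transcripts behind this pair summed to between 1.05 and 1.97 TPM, little above the limit of 1 TPM for testing. The mean difference of 0.16 was the largest among the tested events of the 10 genes, with an unadjusted p of 0.169 and an adjusted p of 1 in limma. This difference was 0.064 without both mice numbered 1, smaller than the 0.11 of a 21-base donor shift of Cacna1g and the −0.096 of an acceptor shift of Cacna1d.

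**Figure D5:**
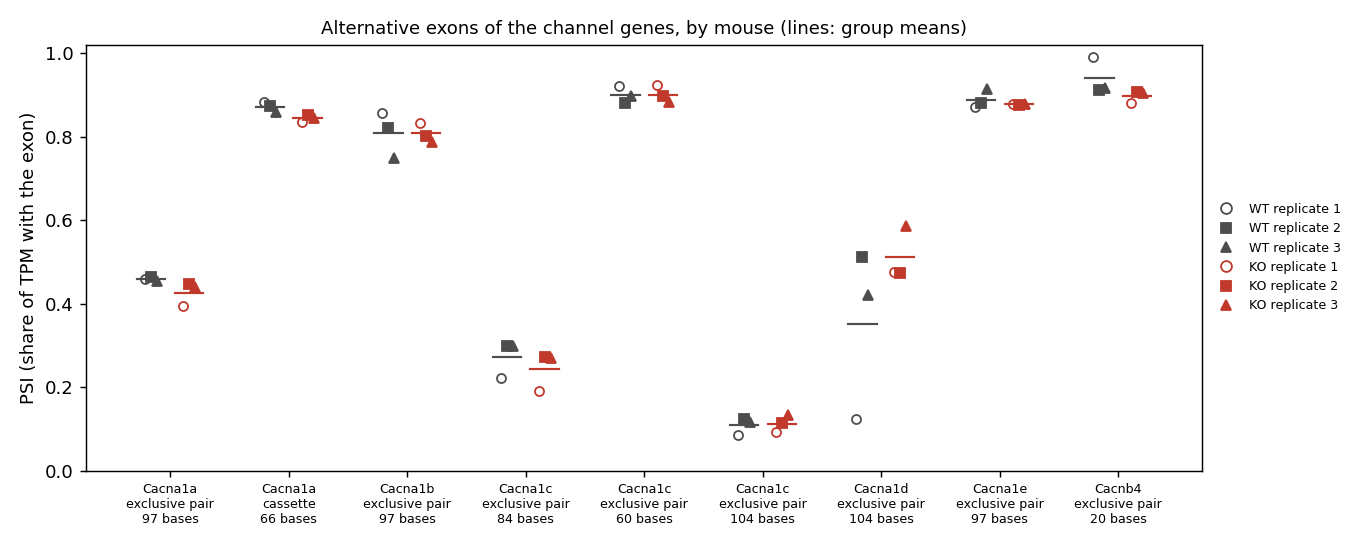
PSI (0 to 1) of the tested mutually exclusive pairs of the channel genes and of the 66-base cassette exon of Cacna1a, for WT (grey) and KO (red) mice, with group means as lines. The PSI is that of the upstream exon in Cacna1a and of the downstream exon elsewhere; Cacna1d spreads from 0.124 to 0.585.

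Over all types of event, 31 events of the 9 genes other than Cbarp were tested, and 0 of them, like 0 of the 21248 events in all (background 0.0%), passed the limits for a call, a PSI difference of 0.05 and an adjusted p of 0.01. At an unadjusted p below 0.05 there were 683 events (3.21%) and 0 of the 31. Without both mice numbered 1, 10.3% of events had such a p, 0 were called, and of the 31 events the 160-base exon of Cacnb4 described below had one. The median absolute PSI difference of the 31 was 0.013, and WT and KO values of 3 of them did not overlap, 9.68% beside 10.7% of all events tested. The first was the Cacna1a pair above. The second was the cassette exon of 66 bases of Cacna1a (chr8:84601756-84601821), with a PSI of 0.883, 0.874 and 0.858 in WT and 0.836, 0.851 and 0.845 in KO, where skipping rested on the retained-intron transcript Cacna1a-209. The third was a pair of 20 bases in Cacnb4, with a PSI of 0.989, 0.911 and 0.917 in WT and 0.881, 0.906 and 0.905 in KO. The differences of these last 2 events were −0.018 and −0.0084 without both mice numbered 1.

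Several of the remaining events are cassette exons known to vary in channel genes. The 63-base exon of Cacna1b (chr2:24682976-24683038) was included at 0.101 ± 0.025 in the WT mice and 0.119 ± 0.015 in KO, and a 6-base exon of the same gene 0.688 ± 0.023 and 0.692 ± 0.035 (SD, n = 3 each). The 63-base exon was carried by the short transcript Cacna1b-206 alone, and its groups overlapped in TPM. From estimated counts its PSI was 0.0018 ± 0.00036 in WT and 0.0023 ± 0.00025 in KO (SD, n = 3 each). These count values did not overlap, but the share of all events without overlap in this unit was not counted. The 6-base exon, a 12-base exon and a 3-base acceptor shift of Cacna1b divided the same expressed transcripts, so they are 1 measurement. In Cacna1g a 69-base exon was included at 0.872 ± 0.019 in the WT mice and 0.894 ± 0.016 in KO, and a 54-base exon 0.529 ± 0.156 and 0.496 ± 0.014 (SD, n = 3 each). In Cacnb4 a 160-base exon had 0.240, 0.391 and 0.395 in WT and 0.164, 0.334 and 0.340 in KO. Within each number the KO mouse was below the WT mouse for this exon, and it was the one of the 31 events with an unadjusted p below 0.05 once replicate numbers entered the fit, 0.0310 with an adjusted p of 0.757 in limma with the replicate block. In that fit 1137 of all 21248 events had an unadjusted p below 0.05. The difference of the 160-base exon was −0.056 without both mice numbered 1, with an adjusted p of 0.433 in limma.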

How the data were processed

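Hippocampal RNA of 6 mice was quantified per transcript. Per the labels and the deposited files, the authors made TruSeq Stranded polyA libraries, sequenced them as read pairs and ran kallisto (0.46.0 in the submitters' processing notes), giving estimated counts and TPM for each transcript and mouse. The authors also deposited a table of gene TPM. Here 116622 of 118783 transcripts were matched to GENCODE M21 (GRCm38), which may not be the release the authors indexed, and the other 2161 held 0.726% to 0.814% of the estimated counts and were left out of shares, events and tests.

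Estimated counts were rounded and tested with edgeR 4.0.16 in R 4.3.3, by the quasi-likelihood test for genes (TMM, filterByExpr) and diffSpliceDGE with the Simes method for transcript use. Splicing events were derived from annotated exons, required 1 TPM in every mouse, and were tested with limma 3.58.1 on the log2 of the TPM with the exon over the TPM without it, 0.1 TPM being added to both. P-values were adjusted by Benjamini-Hochberg over all features tested. Calls required an adjusted p of 0.01, with a 1.5-fold change for genes and a PSI difference of 0.05 for events. Single shares were compared by a two-sided exact permutation test (SciPy 1.17.1), which cannot go below p = 0.1. Standard errors of edgeR fold changes were derived from the F statistic. The scripts were tested on simulated data. PSI values rest on transcript estimates and not on junction reads.

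The 10 genes and the gene lists were chosen with earlier results of these data known. Named were all 10 genes, their transcripts with at least 5% of the TPM in either genotype, their tested events, the other channel subunits, Prmt9, and the 3 genes most like Cbarp. Rare transcripts were named, after their values were seen, where a call rested on them or they completed the coding isoforms.

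Replicates were separate mice. Same-numbered WT and KO mice deviated together over transcripts (r = 0.553, 0.415 and 0.383), each above 0.1, although WT replicate 2 with KO replicate 3 (0.417) and WT replicate 3 with KO replicate 2 (0.394) did so as well, and the numbers were treated as pairs in an alternative fit with a replicate block. Other alternatives were DESeq2 1.42.0, other filters and units, and fits without single mice or without both mice numbered 1. One marker gene of the cell type check is not reported here.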

Additional observations from a re-analysis of the deposited data

How the results depend on the processing

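The gene test called 0 genes, with 2 called by DESeq2, 1 with a term for the mice numbered 1 and 1 without these mice. None was one of the 10 genes in any of these fits. Pairing the mice by number, as a replicate block, left 0 genes called and gave 13 genes for transcript use in place of 23. Cbarp was among them, but it was chosen through this readout, so its calls in these alternative fits support nothing. The pairing changed no other call of the 10 genes. For transcript use there were 4 genes with limma on voom weights, 1 with at least 10 counts in every mouse, 52 with a term for the mice numbered 1 and 249 without both. Leaving out 1 mouse gave 9 (without KO replicate 3) to 143 genes (without WT replicate 1). Of the 10 genes, 0 were called with voom or with at least 10 counts, a filter that removed Cbarp-214. Without both mice numbered 1 there were 2, Cacna1c and the preselected Cbarp. The cause of the other shifts was not tested.

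The KO minus WT share of Cbarp-205, 1.63 percentage points, became 0.219 from estimated counts and 2.55 without both mice numbered 1. That of Cbarp-206, −3.63, became −0.93 and −1.30, and that of Cbarp-214, 0.126, became 0.604 with protein-coding transcripts as the denominator, which gives no value for the noncoding ones. Without both mice numbered 1 the leading share reversed to −0.74 in Cacna1b, 2.24 in Cacna1d and 2.77 in Cacna1i. Log2 fold changes reversed to −0.037 in Cacna1e, 0.015 in Cacna1d and −0.086 in Cacna1g without these mice, to 0.0066 in Cacna1b with any count, and to 0.035 in Cacna1a, 0.081 in Cacna1b, 0.0060 in Cacna1c, 0.052 in Cacna1d and 0.037 in Cacna1h with limma on TPM, where the median of all genes moved from −0.01 to 0.05.

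Leaving out 1 mouse, the leading share ranged from −0.79 to 1.95 in Cacna1b, −4.12 to 3.56 in Cacna1d, −0.51 to 3.01 in Cacna1g, −3.13 to 1.58 in Cacna1i and −0.33 to 11.8 in Cacnb4. Log2 fold changes ranged from −0.067 to 0.057 in Cacna1b, −0.18 to 0.16 in Cacna1e, −0.25 to 0.070 in Cacna1c, −0.087 to 0.025 in Cacna1d, −0.13 to 0.15 in Cacna1g, −0.14 to 0.026 in Cacna1h and −0.28 to 0.080 in Cacnb4.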

Other observations

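Over the 6 mice, the genes whose level in log2(TPM + 1) followed that of Cbarp most closely were Ttll4, Kansl3 and Nisch, with a Pearson r of 0.9999, 0.9996 and 0.9995 among 14187 genes with at least 1 TPM in every mouse. Of these genes 4975 had an r above 0.9 to Cbarp, and the 6 points shared the separation of both mice numbered 1 from the other 4, so the order is a description only. The summed TPM of 2 haemoglobin genes, Hbb-bs and Hba-a1, was between 1719 and 3842 in WT and between 660.3 and 2032 in KO.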
